A study of Homo sapiens with 12 samples.

Results

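Respiratory chain genes were compared across 4 groups of H1 cells (WA01), a widely used human embryonic stem cell line. They were taken by name from a table of 27130 genes (prefixes NDUFA, NDUFB, NDUFC, NDUFS, NDUFV, SDH, UQCR, COX4 to COX8 and ATP5), with every row that lay on chrM only. This gave 95 rows, 93 nuclear and 2 mitochondrial, and 83 of them passed the expression filter of edgeR. The groups were ZNF263 homozygous KO cells that also overexpressed ZIC2, ZNF263 homozygous KO cells, cells that overexpressed ZNF263, and WT cells, with 3 libraries of poly(A) RNA each. ZNF263 and ZIC2 are zinc finger transcription factors, and the series asks what ZNF263, partnered by ZIC2, does in pluripotency. The names of the KO and WT libraries without ZIC2 also carry the tag vec. The kind of edit, the number of clones, the vectors and the source culture of each library are not given in the sources used here, so a p-value here reflects spread among libraries that could be technical.

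The respiratory chain passes electrons from NADH and succinate to oxygen and uses the energy to pump protons across the inner mitochondrial membrane. Complex I oxidises NADH, complex II oxidises succinate, complex III passes electrons on to cytochrome c, complex IV reduces oxygen, and complex V is the ATP synthase that the proton gradient drives. Most subunits are encoded in the nucleus, and a few, with the rRNAs of the mitochondrial ribosome, are encoded in mitochondrial DNA. Human pluripotent stem cells rely heavily on glycolysis but keep a working respiratory chain.

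Of the 93 nuclear rows, 84 were genes of subunits or their isoforms (38 of complex I, 4 of II, 9 of III, 17 of IV and 16 of V). The other 9 were counted apart: 2 read-through transcripts, 3 antisense genes, 2 pseudogenes, and ATP5S and ATP5SL, which are not subunits. The 2 chrM rows were RNR1 (M:650-1603, hg19), the 12S rRNA, and RNR2 (M:1673-3230), the 16S rRNA, and mitochondrially encoded subunits were not analysed here. Counts came from uniquely aligned reads of a kit that does not mark strand. A gene with near-identical copies is therefore undercounted (UQCRHL is a near copy of UQCRH), and reads shared by overlapping genes cannot be assigned.

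Libraries held 17175183 to 21804410 counts, except knockout replicate 1 with 43464609. All 10 markers of pluripotent cells were above 1 CPM (read counts relative to the scaled library size) in every group, and their sum was 8218 to 8338 CPM in KO with ZIC2, 8711 to 8756 in KO, 8491 to 8660 under ZNF263 overexpression and 8316 to 8429 in WT. Marker sums of fibroblasts (635 to 686, 554 to 599.7, 507 to 519.8 and 505 to 517 CPM in the same order of groups) and of neurons (336 to 357, 336 to 354, 297 to 306 and 307 to 311 CPM) were higher in both KO groups, with 5 of 10 and 5 or 6 of 8 markers above 1 CPM. The fibroblast markers DCN or LUM had no count in 3 of the 4 groups. Marker sums of heart and skeletal muscle were 64.5 to 75.1, 59.1 to 82.1, 67.4 to 70.9 and 66.4 to 80.2 CPM in the same order, with 4 of 10 above 1 CPM. These sums do not show that cells of such types were present. What part any such cells have in the results was not tested, and fewer cells of a type cannot be told apart from less RNA per cell in bulk samples. ZNF263 transcripts stood at 0.793 of WT in KO (adjusted p = 0.000302) and 6.11-fold over WT under overexpression (adjusted p = 3.41e-19, edgeR), so ZNF263 transcript was still counted in the cells labelled KO, and its level does not show whether the protein was lost. ZIC2 was 13.07-fold higher in KO with ZIC2 than in KO.

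The nuclear subunit genes have promoters with known recognition sequences of general factors. Promoters from RefSeq (GRCh38.p14, 250 bases before to 50 after a start) were found for 67 of the 84 subunit genes, 81 promoters in all. Exact letters were searched on both strands, and matches of one motif to another may overlap. GCGCATGCG, the core bound by the biogenesis regulator NRF1, was in 13.6% of these promoters, against 1.92% of all 35116 promoters in the table. CCGGAAG, the core of ETS factors such as GABPA, was in 25.9% against 10.3%, and AAGATGGCG, the core of YY1, in 12.3% against 1.75%. GGGGCGGGG, a GC box of SP and KLF factors, was in 13.6% against 15.7%, and GGAGGAGG, a repeat of the type bound by ZNF263, in 3.7% against 10.9%. Among the subunit genes higher in KO, 1 of 39 matched genes held the ZNF263-type repeat, and among those not called or lower 1 of 23 did. A match describes letters only and is not a site. Below are the promoters of the genes with the largest rise and the largest fall in KO, NDUFA13 and NDUFS1, and of NDUFS7 and COX6A1, which also rose and hold a NRF1 core, from 250 bases before to 30 after the start, 5′ to 3′ on the gene's strand. Capitals mark matches on either strand: the ETS core in NDUFA13, the NRF1 and YY1 cores in NDUFS7, the NRF1 and ETS cores in COX6A1 and the ETS core in one of the promoters of NDUFS1.
NDUFA13 (chr19:19515975-19516254, strand plus): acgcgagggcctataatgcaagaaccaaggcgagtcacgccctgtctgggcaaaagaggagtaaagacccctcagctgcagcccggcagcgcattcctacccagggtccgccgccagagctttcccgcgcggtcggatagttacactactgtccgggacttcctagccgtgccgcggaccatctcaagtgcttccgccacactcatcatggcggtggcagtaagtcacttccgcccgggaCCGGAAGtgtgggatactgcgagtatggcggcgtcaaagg
NDUFS7 (chr19:1383657-1383936, strand plus): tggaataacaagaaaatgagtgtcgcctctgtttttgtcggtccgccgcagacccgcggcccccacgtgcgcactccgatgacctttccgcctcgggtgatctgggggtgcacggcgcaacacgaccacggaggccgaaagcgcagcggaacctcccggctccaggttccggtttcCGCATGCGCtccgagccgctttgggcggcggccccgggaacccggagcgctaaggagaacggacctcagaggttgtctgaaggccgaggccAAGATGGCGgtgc
COX6A1 (chr12:120437863-120438142, strand plus): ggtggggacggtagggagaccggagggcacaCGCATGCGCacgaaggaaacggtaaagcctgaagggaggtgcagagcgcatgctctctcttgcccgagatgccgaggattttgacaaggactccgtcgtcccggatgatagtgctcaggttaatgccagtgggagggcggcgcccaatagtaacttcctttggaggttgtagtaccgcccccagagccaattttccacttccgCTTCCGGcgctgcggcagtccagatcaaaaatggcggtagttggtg
NDUFS1 (chr2:206159415-206159694, strand minus): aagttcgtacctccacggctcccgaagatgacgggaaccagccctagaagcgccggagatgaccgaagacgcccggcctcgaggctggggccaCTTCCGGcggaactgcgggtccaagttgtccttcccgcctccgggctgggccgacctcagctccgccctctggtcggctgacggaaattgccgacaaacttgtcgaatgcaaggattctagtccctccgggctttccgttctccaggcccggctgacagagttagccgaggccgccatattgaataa

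In ZNF263 KO cells most nuclear subunit genes were slightly higher than in WT cells, while the 16S rRNA of the mitochondrial genome was lower. Of the 81 nuclear rows tested, 45 were higher and 3 lower (adjusted p under 0.05, edgeR quasi-likelihood test with Benjamini-Hochberg adjustment over 15437 genes). Over all tested genes 38.6% were called, 20% higher and 18.5% lower. The median log2 fold change was 0.16 over the nuclear rows and -0.01 over all genes. The changes were small, and the largest was a 1.45-fold rise. In 39 nuclear rows every KO library was above every WT library, and in 4 every one was below (23.6% and 23.1% of all tested genes). The fold changes moved with GC content and length. Where a correction for both ended the call of a respiratory chain gene with values given here, this is stated beside it.

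Complex I held most of the calls, with 24 subunit genes higher and 2 lower of 37 (median log2 fold change 0.20). These counts take NDUFA4 with complex I, by its name. NDUFA13 (chr19:19627019-19639013, hg19), an accessory subunit also known as GRIM-19, stood at 132, 170.0 and 148 CPM in KO replicates 1 to 3, against 111.9, 97.3 and 101 CPM in WT. The lowest KO library was above the highest WT library, and the log2 fold change was 0.53 (SE 0.07, adjusted p = 1.64e-06, edgeR). NDUFS7 (chr19:1383883-1395588), a core subunit that holds an iron-sulfur cluster near the quinone site, had 48.6, 63.1 and 50.9 CPM in KO, against 39.7, 37.9 and 38.7 CPM in WT. Its groups did not overlap either (log2 fold change 0.47, SE 0.07, adjusted p = 2.05e-05). NDUFB11 (chrX:47001615-47004609), an accessory subunit of the membrane arm, had 102, 119.9 and 107 CPM in KO, against 87.0, 82.9 and 82.6 CPM in WT (log2 fold change 0.38, SE 0.05, adjusted p = 7.33e-06). For all 3 genes KO replicate 2 was the highest library of the series.

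Both core and accessory subunits of complex I rose, 4 of 7 core genes (NDUFS7, NDUFS8, NDUFV1 and NDUFS3) and 20 of 30 accessory ones. After the GC and length correction NDUFS7 was the only one of the 7 core genes called (core median 0.01, against 0.16 before it), with NDUFS8 at -0.01, NDUFV1 at 0.09 and NDUFS3 at 0.00. Then 12 of 30 accessory genes were higher (40%). Over all tested genes 15.7% were higher and 13.7% lower after the correction. NDUFS1 (chr2:206987803-207024243), the large core subunit that carries iron-sulfur clusters of the electron input module, went the other way. It had 108, 97.5 and 102 CPM in KO, against 114, 117 and 113 CPM in WT (log2 fold change -0.16, SE 0.04, adjusted p = 0.00466), with all KO libraries below all WT libraries; the correction ended this call (-0.08). NDUFA5, an accessory subunit, had 84.7, 90.1 and 86.9 CPM in KO, against 99.95, 90.1 and 92.7 CPM in WT (log2 fold change -0.11, SE 0.04, adjusted p = 0.0427). Here the groups met at about 90.1 CPM, and the correction ended the call and turned its direction (0.11). NDUFA4, named for complex I but an associated subunit of complex IV, was just past the threshold, with 189.8, 211 and 195 CPM in KO, against 192, 179.5 and 182 CPM in WT (log2 fold change 0.10, SE 0.04, adjusted p = 0.0491).

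Complex II, which also works in the citric acid cycle, changed little: 1 of 4 genes was higher (median log2 fold change 0.01). SDHB (chr1:17345225-17380665), its iron-sulfur subunit, had 63.0, 73.5 and 66.4 CPM in KO, against 62.9, 55.9 and 56.7 CPM in WT (log2 fold change 0.20, SE 0.05, adjusted p = 0.00522). SDHA, the flavoprotein, had 73.0, 76.3 and 77.0 CPM in KO, against 71.6, 71.0 and 69.3 CPM in WT, and was not called (log2 fold change 0.09, SE 0.05, adjusted p = 0.109). SDHD, a membrane anchor, had 104, 112.3 and 99.4 CPM in KO, against 115, 113 and 108 CPM in WT (log2 fold change -0.09, SE 0.05, adjusted p = 0.14). The 4 subunits of this complex thus did not share a direction in these libraries, and that complex II differs from complex I was not tested.

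In complex III 6 of 9 genes were higher and none lower in KO (median 0.15). UQCRC1 (chr3:48636432-48647098), a core subunit, had 255, 283 and 259 CPM in KO, against 234, 211 and 222 CPM in WT (log2 fold change 0.26, SE 0.04, adjusted p = 5.44e-05). Its partner core subunit UQCRC2 had 139.7, 143 and 131 CPM in KO, against 151, 145 and 146 CPM in WT (log2 fold change -0.10, SE 0.04, adjusted p = 0.0516). So the paired core subunits lay on opposite sides of their WT values, with no overlap of groups for either, though UQCRC2 was not called. After the GC and length correction UQCRC1 stayed higher at 0.08, and UQCRC2 stood at -0.04 (adjusted p = 0.395, edgeR). UQCR11, a small subunit, had 70.3, 80.7 and 72.3 CPM in KO, against 67.0, 58.6 and 61.3 CPM in WT (log2 fold change 0.25, SE 0.05, adjusted p = 0.000857). UQCR10, another small subunit, had 64.7, 70.7 and 69.0 CPM in KO, against 57.6, 63.0 and 59.6 CPM in WT (log2 fold change 0.18, SE 0.05, adjusted p = 0.00581). Both rose with no overlap of the groups, but the correction ended both calls (UQCR11 0.08, adjusted p = 0.169, and UQCR10 0.05, adjusted p = 0.425). It left 2 of 9 genes of complex III higher (22.2%, near the 15.7% of all genes higher after it).

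In complex IV 7 of 12 tested genes were higher and none lower in KO (median 0.23). COX7A2 (chr6:75947391-75953644), a small structural subunit, had 100.4, 128 and 106 CPM in KO, against 89.9, 84.8 and 80.9 CPM in WT (log2 fold change 0.38, SE 0.06, adjusted p = 6.5e-05). COX6A1 had 154, 192 and 160.3 CPM in KO, against 139.6, 136 and 131 CPM in WT (log2 fold change 0.31, SE 0.06, adjusted p = 0.000166). COX7C had 298, 346 and 313 CPM in KO, against 286, 262 and 260.0 CPM in WT (log2 fold change 0.24, SE 0.05, adjusted p = 0.000237). In each of these 3 genes every KO library was above every WT library.

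The isoforms of complex IV in these cells were the widely expressed ones. COX4I1 averaged 242 ± 22.1 CPM in KO and 201 ± 10.6 CPM in WT (SD, n = 3 each; log2 fold change 0.27, adjusted p = 0.000463, edgeR). COX6B1 averaged 132 ± 14.5 CPM in KO and 111.7 ± 3.21 CPM in WT (SD, n = 3 each), and COX8A 122.7 ± 12.8 CPM in KO and 103 ± 6.96 CPM in WT (SD, n = 3 each), and both rose. The correction ended both calls (COX6B1 0.04, adjusted p = 0.398, and COX8A 0.02, adjusted p = 0.803). It left 4 of 12 genes of complex IV higher and 1 lower (33.3% and 8.33%, against 15.7% and 13.7% of all genes). COX7B (log2 fold change 0.01) and COX7A2L (-0.03), which takes part in supercomplex assembly, were not called. The isoforms known from lung, muscle or testis were at most 0.726 CPM in any library (COX6B2, the only one of them to pass the filter, not called). COX4I2, COX6A2, COX7A1 and COX7B2 were too low to be tested. COX8C had no count in any library, which allows up to 3 counts, or 0.069 to 0.175 CPM, of reads that could be assigned to it. Of its exon bases 61.6% were shared with UNC79, so the limit does not cover most of the gene. NDUFA4L2, an isoform of NDUFA4 induced by low oxygen, was at most 0.221 CPM.

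In complex V 6 of 14 tested genes were higher and 1 lower in KO (median 0.10). The main subunits of the catalytic F1 head, ATP5A1 and ATP5B, were not called. ATP5B had 925, 982 and 930.0 CPM in KO, against 964, 923 and 923 CPM in WT (log2 fold change 0.01, 95% interval -0.06 to 0.08), and ATP5A1 also stood at 0.01 (95% interval -0.06 to 0.08). ATP5C1, the central stalk, stood at -0.02 (95% interval -0.12 to 0.07). ATP5D (chr19:1241749-1244824), another subunit of that stalk, had 80.7, 92.1 and 83.8 CPM in KO, against 72.5, 60.0 and 67.0 CPM in WT (log2 fold change 0.36, SE 0.06, adjusted p = 0.000101), and the correction ended its call (0.08). In the F1 part 1 of 4 tested genes was higher, and in the Fo part and the outer stalk 5 of 10 were higher and 1 was lower. Whether the parts differ was not tested.

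ATP5G1, ATP5G2 and ATP5G3 encode the same c-ring protein, which turns as protons pass. ATP5G1 averaged 66.6 ± 2.45 CPM in KO and 54.7 ± 1.48 CPM in WT (SD, n = 3 each; log2 fold change 0.28, adjusted p = 0.000131, edgeR). ATP5G2 averaged 189.7 ± 14.8 CPM in KO and 171 ± 12.7 CPM in WT (SD, n = 3 each; 0.15, adjusted p = 0.0318), with overlapping libraries, and was not called after the correction (0.10, adjusted p = 0.0644). ATP5G3 averaged 251 ± 16.7 CPM in KO and 238 ± 10.9 CPM in WT (SD, n = 3 each; 0.07, adjusted p = 0.243). ATP5J2, a small subunit of the Fo part, had 83.1, 95.8 and 84.8 CPM in KO, against 75.9, 70.0 and 72.6 CPM in WT, and rose (log2 fold change 0.27, SE 0.05, adjusted p = 0.000268), but 35.4% of its exon bases were shared with the read-through row ATP5J2-PTCD1. ATP5F1, the peripheral stalk subunit b, fell, with 181, 198 and 181 CPM in KO, against 201, 205 and 199 CPM in WT (log2 fold change -0.11, SE 0.04, adjusted p = 0.0293). This call held in 8 of the 13 alternatives described under processing. ATP5E was not tested: it had 81 counts in all libraries, and 66.3% of its exon bases were shared with a read-through gene.

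**Figure D1:**
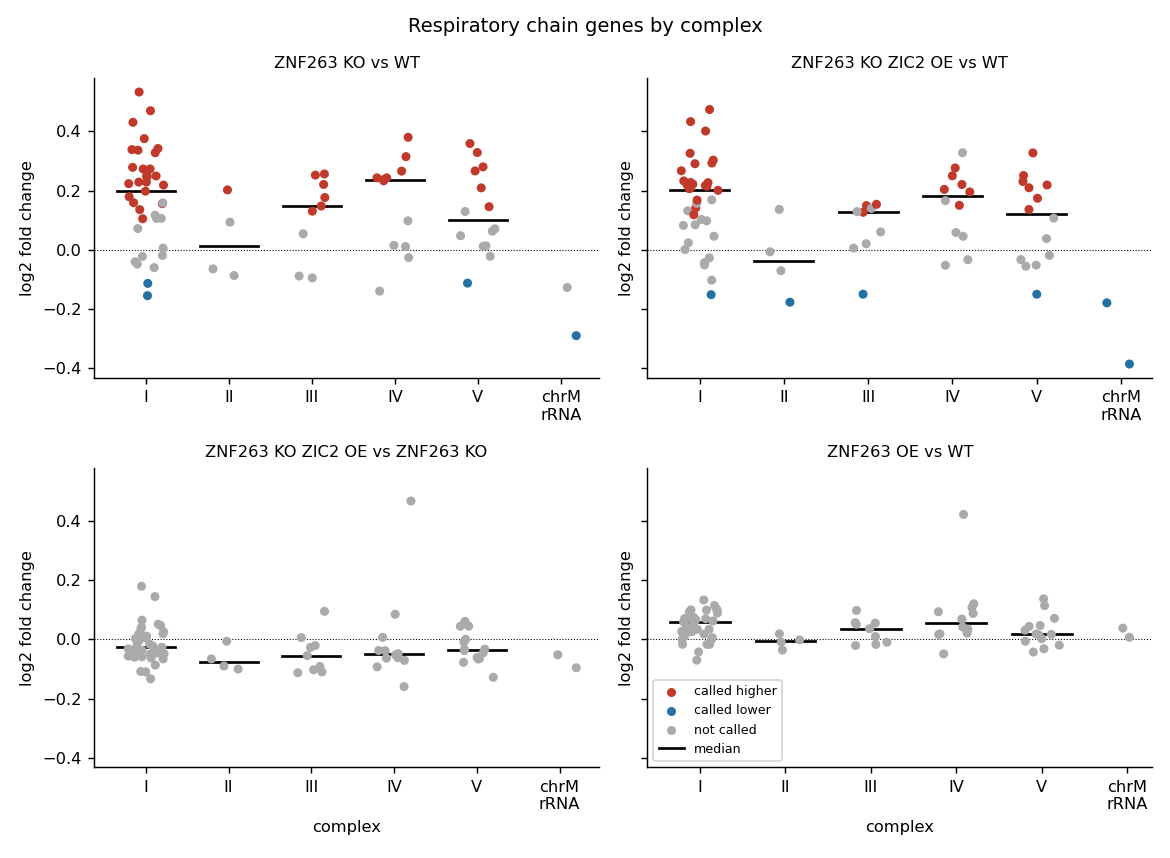
Log2 fold change (vertical axis) of each tested subunit gene by complex and of the chrM rRNAs, 1 panel per comparison; points are genes coloured by call at adjusted p under 0.05, and black lines are medians. In ZNF263 KO vs WT the medians of complexes I, III, IV and V are 0.20, 0.15, 0.23 and 0.10 and both rRNAs lie below 0; no point is called in the lower panels.

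**Figure D2:**
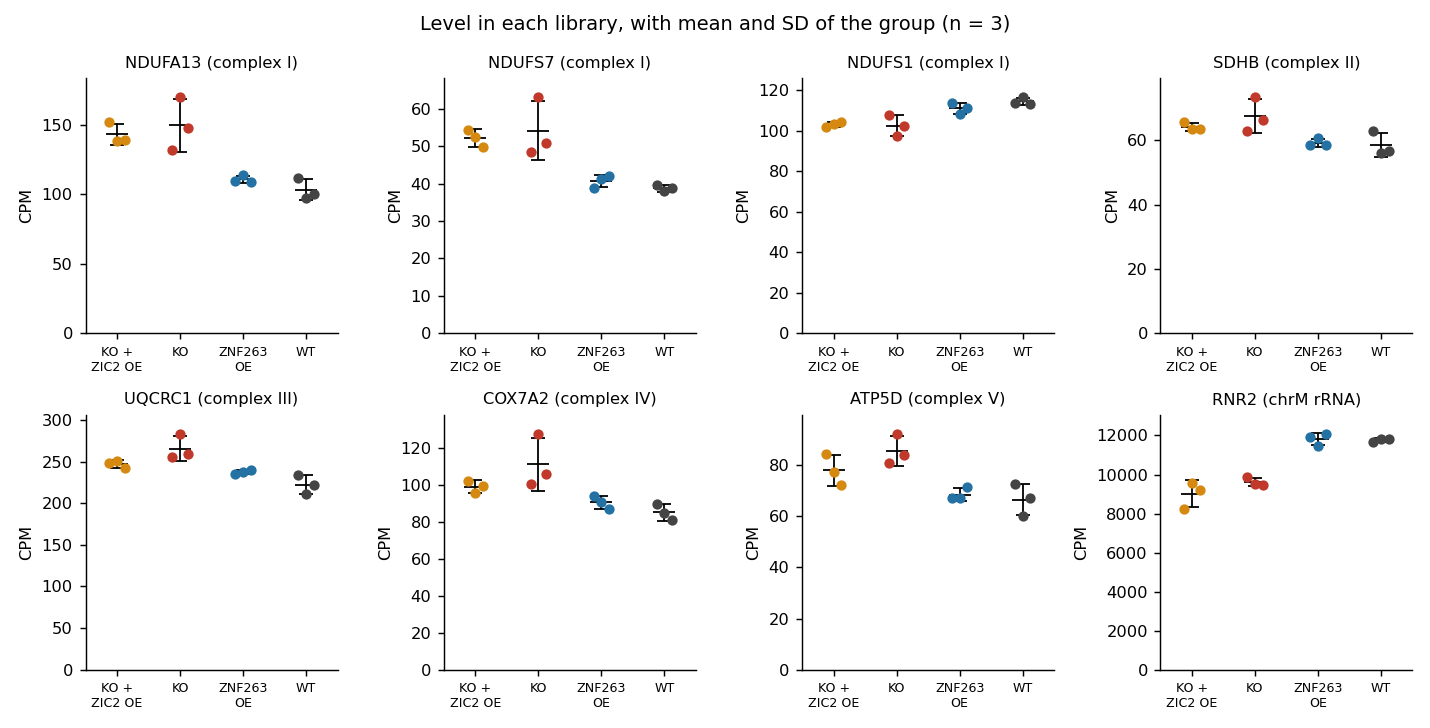
CPM of 8 members in each library (points, 3 per group), with the group mean and SD (bars); the axes start at 0. NDUFA13 is 132 to 170.0 CPM in KO and 97.3 to 111.9 CPM in WT, and RNR2 is 9479 to 9859 CPM in KO and 11645 to 11838 CPM in WT.

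RNR2, the 16S rRNA, was lower in KO cells, with 9859, 9537 and 9479 CPM, against 11645, 11838 and 11827 CPM in WT. The groups were far apart relative to their spread (log2 fold change -0.29, SE 0.04, adjusted p = 3.39e-06, edgeR). RNR1, the 12S rRNA, had 1855, 1818 and 1728 CPM in KO, against 1898, 1991 and 2011 CPM in WT. Its libraries did not overlap, but it missed the threshold narrowly (log2 fold change -0.13, SE 0.05, adjusted p = 0.0507). Both lie on the same precursor strand, and RNR2 counts per RNR1 count were 5.31, 5.25 and 5.48 in KO, against 6.13, 5.95 and 5.88 in WT. The libraries were made from poly(A) RNA, so the amount of rRNA and the share that poly(A) selection carried along cannot be told apart. The nuclear rRNA precursor RNA45S5 was 0.122 to 0.257% of counts in KO and 0.0471 to 0.0729% in WT. How its reads came into these libraries was not tested. The part of the selection in the fall of RNR2 was not tested.

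As a share of all counts, the nuclear rows together made up 0.897, 1.01 and 0.931% in KO, against 0.921, 0.867 and 0.867% in WT. These groups overlapped: KO replicate 2 and WT replicate 1 were the highest of their groups. Counting error was at most 0.0045 percentage points (95% Wilson interval, half-width), which covers counting only. The chrM rows made up 1.16, 1.11 and 1.11% in KO, against 1.36, 1.40 and 1.40% in WT, with no overlap. Per nuclear count there were 1.10 to 1.29 chrM counts in KO and 1.48 to 1.62 in WT.

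**Figure D3:**
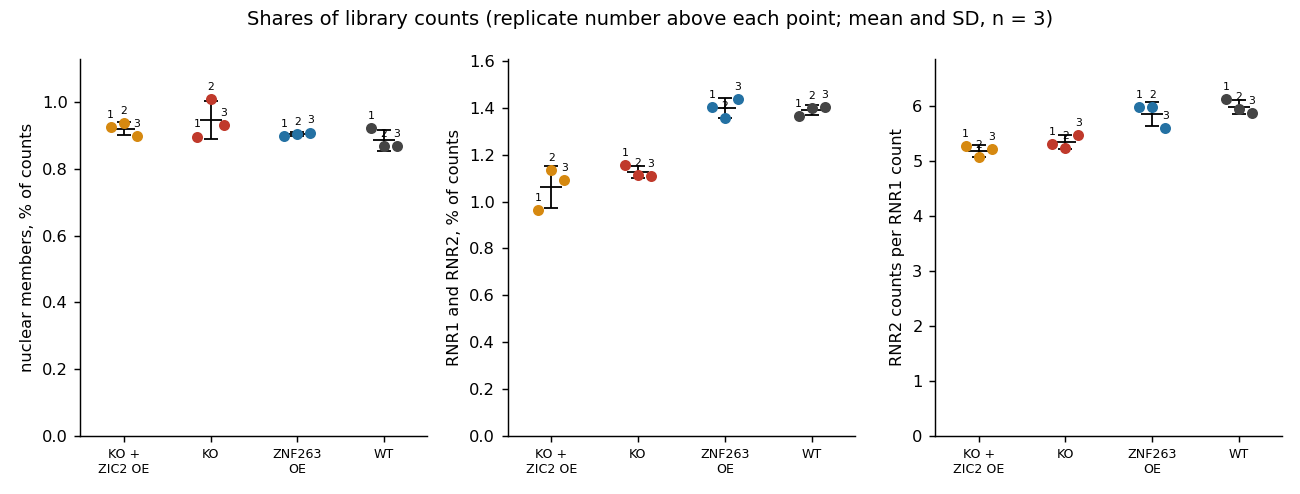
Percent of library counts from nuclear members and from RNR1 and RNR2, and RNR2 counts per RNR1 count, by group (points are libraries with their replicate number, bars mean and SD, axes from 0). The nuclear share of KO (0.897 to 1.01%) overlaps that of WT (0.867 to 0.921%), while the chrM share is 1.11 to 1.16% in KO and 1.36 to 1.40% in WT.

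The rise of the nuclear genes moved with transcript composition. Across the 76 tested subunit genes the log2 fold change in KO vs WT had a Spearman correlation of 0.63 with GC content and -0.50 with exon length; over all genes these were 0.425 (14999 genes with a GC value) and -0.24. Genes are not independent replicates, and all fold changes come from the same 6 libraries. The genes are short: the 81 tested nuclear rows had a median of 1059 bases, against 3303 bases over all genes. When all genes were cut into 5 equal bins by length, 59 of the 76 subunit genes lay in the shortest. In that bin the median log2 fold change was 0.22 for subunit genes and 0.10 for all genes. In the bin of 5 with the lowest GC it was 0.03 for subunit genes and -0.15 for all genes, and in the highest it was 0.35 for subunit genes and 0.17 for all genes. Those bins hold 10 subunit genes each. The part of RNA quality or library preparation in these trends was not tested.

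With the trend over GC and length removed from each library, 26 nuclear rows were higher and 4 lower in KO (background 29.4% called, 15.7% higher and 13.7% lower), with a median of 0.06. Of the 48 calls 24 remained in the same direction and none turned into a call of the opposite direction. COX7A2 (log2 fold change 0.32), NDUFA11 (0.30), NDUFA13 (0.27), COX7C (0.23), ATP5L (0.21) and NDUFA4 (0.21) then had the largest rises among the genes called in both. NDUFS7 stayed higher at 0.19 and ATP5F1 lower at -0.11. Over all 13 alternatives described under processing, NDUFS7 kept its call in 13 and ATP5F1 in 8. By complex, 13 genes of complex I, 1 of II, 2 of III, 4 of IV and 5 of V were then higher, and 1 of II, 1 of IV and 2 of V were lower. NDUFA5 was no longer called (adjusted p = 0.0707). SDHD became a lower call at -0.15 (adjusted p = 0.00118), and RNR1 (-0.20) and RNR2 (-0.27) were both called lower.

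**Figure D4:**
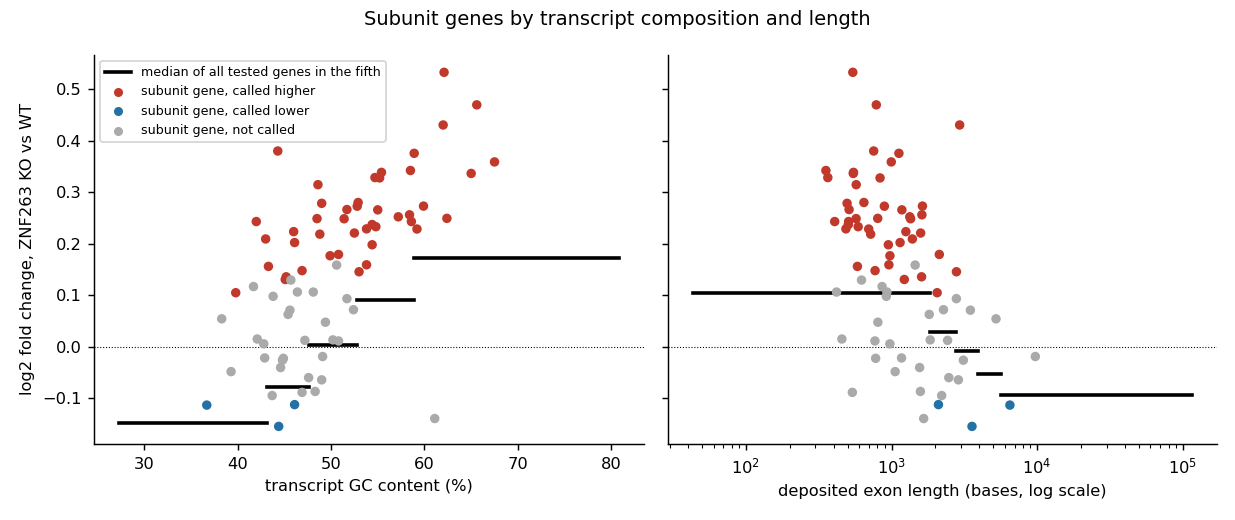
Log2 fold change in ZNF263 KO vs WT of the 76 tested subunit genes against transcript GC content (percent) and exon length (bases, log axis); points are genes coloured by call, black bars the median of all tested genes in each of 5 bins. Fold changes rise with GC and fall with length, and in the bin of highest GC the median is 0.35 for subunit genes and 0.17 for all genes.

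No respiratory chain gene was called when ZNF263 was overexpressed. Of 81 nuclear rows none passed against WT (0.764% of all genes did, 0.317% higher and 0.447% lower, 118 in number), 5 had an unadjusted p under 0.05, and DESeq2 called none either. The median log2 fold change was 0.03 over the nuclear rows and 0.00 over all genes. In 9 nuclear rows every library of the overexpressing cells was above every WT library and in none was every one below (9.92% and 9.46% of all genes), and after the GC and length correction none was called (1.56% of all genes, 0.745% higher and 0.816% lower). NDUFA13 had 109.8, 114 and 109 CPM under overexpression, against 111.9, 97.3 and 101 CPM in WT (log2 fold change 0.10, 95% interval -0.04 to 0.24). The libraries overlapped. ATP5G1 had 60.9, 63.4 and 56.5 CPM under overexpression, against 56.4, 53.5 and 54.3 CPM in WT (log2 fold change 0.14, 95% interval 0.03 to 0.24, adjusted p = 0.3). RNR2 had 11926, 11484 and 12076 CPM under overexpression, against 11645, 11838 and 11827 CPM in WT (log2 fold change 0.01, 95% interval -0.07 to 0.09), and RNR1 stood at 0.04.

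No respiratory chain gene was called when ZIC2 was overexpressed in KO cells. None of 81 nuclear rows passed against KO (8.34% of all genes did, 4.99% higher and 3.35% lower), 9 had an unadjusted p under 0.05, and DESeq2 called none. In 2 rows the libraries with ZIC2 were all above those of KO and in 2 all below (11.3% and 10.5% of all genes). The median log2 fold change was -0.04 over the nuclear rows. COX7A2 had 102, 95.6 and 99.4 CPM with ZIC2, against 100.4, 128 and 106 CPM in KO (log2 fold change -0.16, SE 0.06, adjusted p = 0.143). NDUFA13 had 152, 138 and 139 CPM with ZIC2, against 132, 170.0 and 148 CPM in KO (log2 fold change -0.06, 95% interval -0.19 to 0.08), with overlapping libraries. RNR2 had 8230.3, 9568 and 9221 CPM with ZIC2, against 9859, 9537 and 9479 CPM in KO (log2 fold change -0.10, SE 0.04, adjusted p = 0.143). The counts changed with the KO library left out: without KO replicate 1, 6 nuclear rows were lower, and without KO replicate 2, 3 were higher. Over all genes 8.34% were called in the full fit, and the counts with 1 library left out are given in the last section. Beside those, the 6 and 3 calls show nothing about the nuclear rows as a set. The GC and length correction moved the median over all genes to -0.02. After it 1 nuclear row was higher and 5 were lower, against 15.0% of all genes (5.58% higher and 9.44% lower). NDUFB3 was the higher one (log2 fold change 0.20), and UQCRC1 (-0.14, adjusted p = 0.000456), NDUFB11 (-0.14), UQCR11 (-0.15), NDUFB10 (-0.12) and SDHA (-0.13) were the lower ones.

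In KO cells with ZIC2 most nuclear subunit genes again stood above WT and both mitochondrial rRNAs below it. This comparison and that of KO with WT share the WT libraries and are not independent. Of 81 nuclear rows 39 were higher and 4 lower (37.6% of all genes called, 20.3% higher and 17.3% lower), with a median of 0.15. In 39 rows every library with ZIC2 was above every WT library, and in 5 every one was below (25.0% and 22.3% of all genes). NDUFA13 had 152, 138 and 139 CPM with ZIC2, against 111.9, 97.3 and 101 CPM in WT (log2 fold change 0.47, SE 0.07, adjusted p = 9.74e-06). ATP5J2 had 92.1, 94.1 and 87.8 CPM with ZIC2, against 75.9, 70.0 and 72.6 CPM in WT (log2 fold change 0.33, SE 0.05, adjusted p = 3.7e-05). COX6A1 had 171, 163 and 158 CPM with ZIC2, against 139.6, 136 and 131 CPM in WT (log2 fold change 0.28, SE 0.06, adjusted p = 0.00072).

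By complex, 22 genes of complex I were higher and 1 lower, none and 1 of complex II, 3 and 1 of complex III, 6 and none of complex IV, and 7 and 1 of complex V. The lower genes were NDUFS1 (log2 fold change -0.15), SDHD (-0.18), UQCRC2 (-0.15) and ATP5F1 (-0.15). The GC and length correction ended the calls of NDUFS1 and UQCRC2, while those of SDHD and ATP5F1 remained. UQCRC2 had 133 CPM in each library with ZIC2, against 151, 145 and 146 CPM in WT. SDHD had 95.4, 104 and 97.2 CPM with ZIC2, against 115, 113 and 108 CPM in WT. RNR2 had 8230.3, 9568 and 9221 CPM with ZIC2, against 11645, 11838 and 11827 CPM in WT (log2 fold change -0.39, SE 0.04, adjusted p = 6.49e-08), and RNR1 was called lower too (-0.18, adjusted p = 0.00754). After the GC and length correction 19 nuclear rows were higher and 6 lower (28.9% of all genes called, 12.7% higher and 16.2% lower), and 17 of the 43 calls remained in the same direction. The median over all genes was then -0.02. NDUFB10 was higher before the correction (log2 fold change 0.14) and called lower after it (-0.13, adjusted p = 0.00938). Without KO with ZIC2 replicate 1 there were 28 calls, and without WT replicate 3 there were 26.

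**Figure D5:**
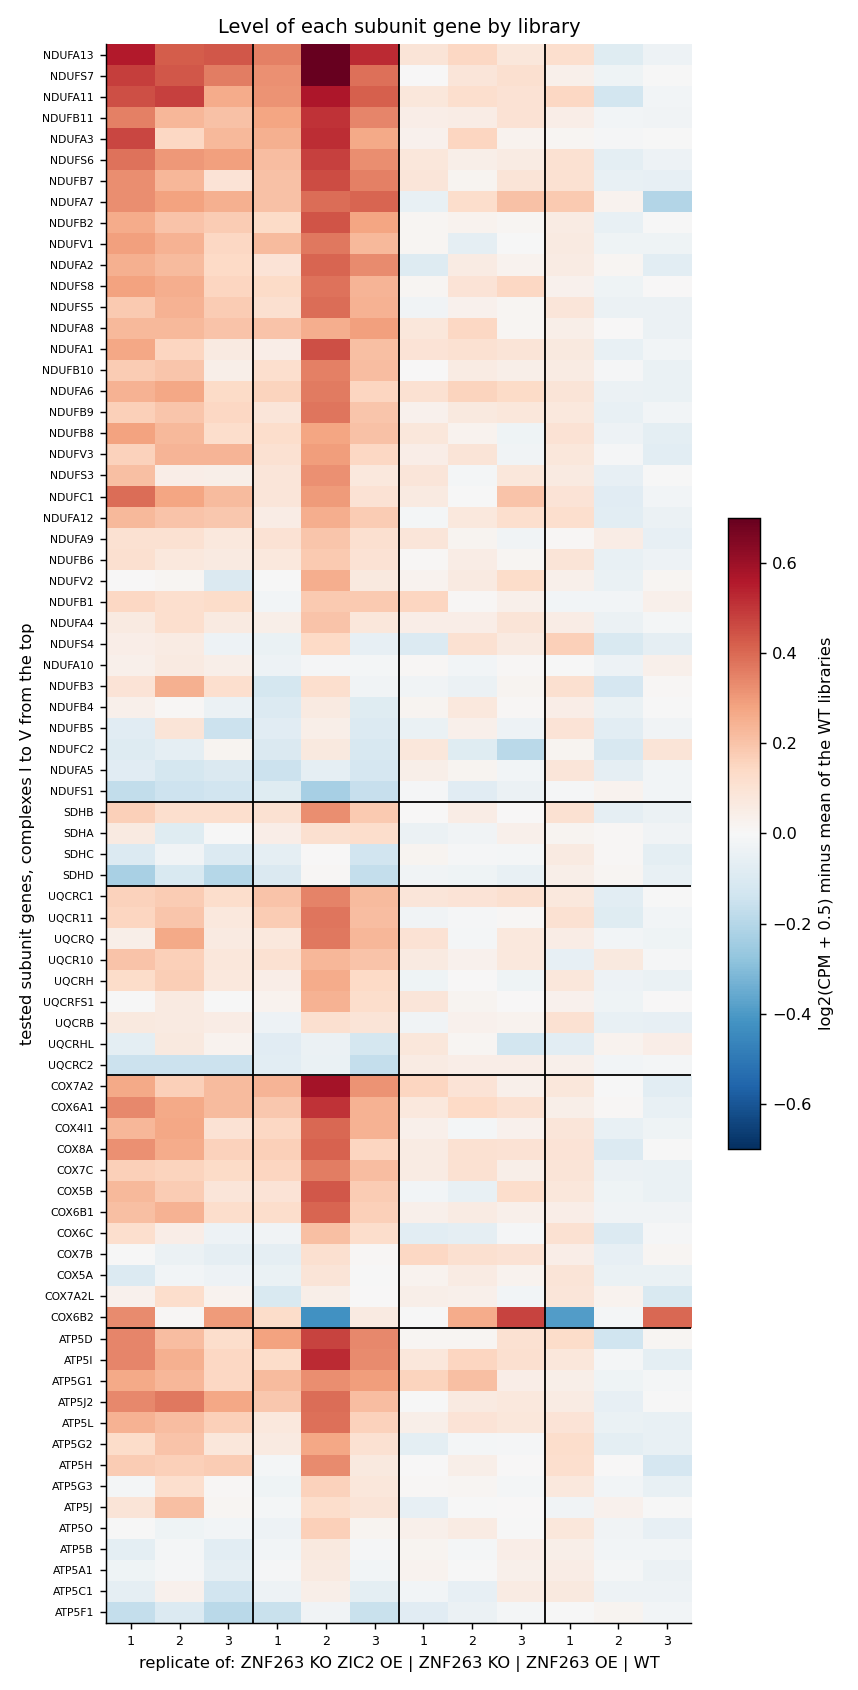
Level of 75 of the 76 tested subunit genes (rows, by complex and within it by fold change in KO vs WT) in the 12 libraries (columns, by group), as log2(CPM + 0.5) minus the mean of the WT libraries. The upper rows of complexes I, III, IV and V are red in all 6 KO libraries and deepest in KO replicate 2, whose median over subunit genes is 0.27, against 0.08 and 0.15 in the other KO libraries and -0.03 to 0.07 in WT.

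Levels per kilobase of the deposited exon length differed widely among the subunits of a complex. That length can exceed the length of the transcript expressed, and its part in low values was not tested. In WT cells COX7C stood at 662 CPM per kilobase and COX7A2L at 26.6 CPM per kilobase in complex IV. ATP5B, at 508 CPM per kilobase, and ATP5A1, at 346, led complex V. NDUFS5, at 359 CPM per kilobase, led complex I, UQCRH, at 310.3, complex III, and SDHD, at 70.7, complex II. NDUFC2, at 7.33 CPM per kilobase, was the lowest tested subunit gene of complex I, and 32.2% of its exon bases were shared with other rows.

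Genes that build and serve the chain, here and in the next paragraph, are given without the GC and length correction. How they stand after it was not examined. They were counted in the same fit for KO vs WT, where 38.6% of all genes were called. Shares of 37.5% (complex I assembly), 32.1% (complexes III and IV), 33.3% (complexes II and V) and 27.8% (further subunits and carriers) were below that background. The total called therefore shows nothing about the lists. By direction, in the same order, 31.2, 25, 33.3 and 22.2% were higher and 6.25, 7.14, 0 and 5.56% lower. Over all genes 20% were higher and 18.5% lower, and whether the lists differ from this was not tested. Of 16 complex I assembly genes 5 were higher and 1 lower; NUBPL, which delivers iron-sulfur clusters to complex I, was at 11.3 ± 0.798 CPM in KO and 6.56 ± 0.278 CPM in WT (mean and SD, n = 3 each; edgeR log2 fold change 0.79, adjusted p = 1.49e-06). Of 28 assembly genes of complexes III and IV 7 were higher and 2 lower, with UQCC3 at 36.8 CPM in KO and 24.2 CPM in WT (0.59, adjusted p = 7.24e-08). Of 9 assembly genes of complexes II and V 3 were higher, and of 18 further subunit and electron carrier genes 4 were higher and 1 lower, with CYC1, cytochrome c1 of complex III, at 0.32 (adjusted p = 4.92e-06). Import and outer membrane genes, which bring nuclear-encoded subunits into the organelle, were higher in 15 of 25 and lower in 2 (60% and 8%, against 20% and 18.5% of all genes); TIMM13 averaged 229 CPM in KO and 161 CPM in WT (0.51, adjusted p = 5.79e-08). Of 19 citric acid cycle genes 5 were higher and 3 lower (42.1% called).

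Of 18 mitochondrial RNA processing genes 5 were higher and 7 lower in KO (66.7% called, 27.8% higher and 38.9% lower). LRPPRC, which stabilises mitochondrial mRNAs with SLIRP, averaged 315 CPM in KO and 374 CPM in WT (log2 fold change -0.25, adjusted p = 6.93e-06), while SLIRP averaged 135 CPM in KO and 108 CPM in WT (0.32, adjusted p = 4.02e-05). FASTKD1 fell by 0.35 on the log2 scale (adjusted p = 4.52e-06). Among 15 genes of mitochondrial DNA maintenance and transcription 4 were higher and 1 lower (33.3% called, below the background, 26.7% higher and 6.67% lower). The polymerase POLRMT was higher (0.28, adjusted p = 5.04e-06, edgeR) and the packaging factor TFAM was lower (-0.13, adjusted p = 0.00473). Among 12 regulators of mitochondrial biogenesis none was higher and 3 were lower (25% of the list, near the 18.5% of all genes), GABPA (-0.22, adjusted p = 0.000646), GABPB1 (-0.14) and SIRT1 (-0.11). Under ZNF263 overexpression none of the genes on these lists was called against WT.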

How the data were processed

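Poly(A) RNA of H1 cells was sequenced in 12 libraries, 3 in each of 4 groups. The deposited values are raw counts of reads by gene, without normalization; per the file headers they came from uniquely aligned reads, and the submitters' processing notes name STAR, featureCounts, DESeq2 and hg19, with no versions or settings. Total counts per library ran from 17175183 to 43464609. Genes were filtered with filterByExpr and scaled by TMM, and edgeR 4.0.16 (R 4.3.3) fitted 1 quasi-likelihood model with group as the only term to all 12 libraries, tested on simulated data first. P-values were adjusted by Benjamini-Hochberg over 15437 genes within each of 4 comparisons, and genes were called under 0.05. The common biological coefficient of variation was 0.0397, with 8 residual degrees of freedom. CPM use the TMM-scaled library sizes of the tested genes.

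For the GC and length correction, a spline trend (5 degrees of freedom each) was fitted per library and entered as an offset. The trend includes a constant, so the correction also rescales each library relative to TMM. GC content is the mean over GENCODE v29 transcripts matched by symbol, for all 81 tested nuclear rows and 97.2% of tested genes. Alternatives were DESeq2 1.42.0, its size factors in edgeR, no filter, a replicate block, 6-library fits, scaling without chrM, that correction and leaving out each library. Members, gene lists and tests were chosen with earlier results of these data known. Values in every library are given for the chrM rows, the 3 genes of each complex with the smallest adjusted p in KO vs WT, the 1 with the smallest adjusted p in other comparisons with a call, called genes against their complex's direction and isoform families, some in brief; genes of the other lists are up to 3 with the smallest adjusted p. NDUFA11, NDUFS5, ATP5A1, ATP5B, ATP5C1, UQCRH, NDUFC2, GABPB1, SIRT1 and SLIRP were named after their values were seen. RNA45S5 was outside the planned gene lists. UQCRC2 was picked by its call in KO with ZIC2 vs WT, not in KO vs WT. Figures were drawn with matplotlib 3.10.9. Values of 1 gene are not reported here, though counts and medians include it.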

Additional observations from a re-analysis of the deposited data

How the results depend on the processing

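In ZNF263 KO vs WT the nuclear rows called numbered 36 to 54 when 1 library was left out and 40 to 49 under the other alternatives, except 30 after the GC and length correction. Of the 48 calls 20 held in all 13 alternatives and 35 in all but that correction. The chrM rows called were 2 in place of 1 without the filter, with the replicate block, in the 6-library fit and after the correction, and 1 to 2 with 1 library left out, 2 without KO replicate 1, KO replicate 2 or WT replicate 1; RNR2 was called lower in all 13. NDUFA5 turned to 0.11 after the correction. Under ZNF263 overexpression no member was called in any alternative, while the calls over all genes were 220 without the filter, 431 in the 6-library fit, 241 after the correction and 50 to 77 with 1 library left out, against 118. In KO with ZIC2 vs KO the nuclear calls were 2 without the filter, 6 after the correction and 0 to 6 with 1 library left out; the chrM calls were 1 without the filter and 0 to 1 with 1 library left out (1 without KO with ZIC2 replicate 2). Over all genes that comparison gave 2320 calls after the correction (862 higher and 1458 lower, against 771 and 517) and 842 to 1476 with 1 library left out, 842 without KO with ZIC2 replicate 1. In KO with ZIC2 vs WT the nuclear calls were 25 after the correction and 26 to 45 with 1 library left out, and the chrM calls 1 to 2 (1 without KO with ZIC2 replicate 1). Of the 43 nuclear calls there 11 held in all 13 alternatives and 21 in all but the correction. The correction moved the split of all calls there to 1963 higher and 2496 lower, against 3126 and 2678. The median log2 fold change over all genes moved with it, from 0.0038 to -0.0204. In KO with ZIC2 vs KO it moved from -0.0011 to -0.0245. The causes of these changes were not tested. Replicate numbers showed no sign of pairing samples, and the labels do not say whether they do. Deviations of same-numbered libraries correlated at -0.101 to 0.103 (median -0.009, 1 of 18 over 0.1). For libraries with different numbers this was -0.099 to 0.138 (median -0.002, 1 of 36 over 0.1). With the replicate block 46, 0, 0 and 43 nuclear rows were called in KO vs WT, ZNF263 overexpression vs WT, KO with ZIC2 vs KO and KO with ZIC2 vs WT. A left-out library leaves 2 in its group. Low depth limits COX6B2 and the untested isoforms.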
